A study of Glycine max with 16 samples.

Results

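Leaves of Williams 82, a cultivar of soybean (Glycine max), were compared at their growth temperature and at the temperature where photosynthesis ran fastest, a mild warming that comes before heat begins to inhibit carbon fixation. The comparison used 8 of the 16 arrays of the series, chosen by their labels. 4 arrays were of leaves at the growth temperature of 22 °C, called baseline, and 4 were of leaves at the photosynthetic optimum. The 8 other arrays were of leaves at higher temperatures, where photosynthesis had dropped by 20% or 30% from that optimum, and they entered the fit to help estimate the spread. All plants were of that cultivar and grew in a walk-in chamber with a 10 h photoperiod, 350 µmol of light per square metre per second and 60% relative humidity. For the warmer states the temperature was raised by 2 °C every 10 min from 22 °C towards 42 °C, and a leaf was taken once photosynthesis had settled for 20 to 30 min. The labels do not give the temperature of the optimum. Because a full curve took 3 to 4 h, the optimum leaves were both warmer and sampled after time on the curve, and these cannot be told apart.

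Plants meet warming with the heat shock response, in which heat shock factors (HSFs) switch on genes for chaperones that hold or refold damaged proteins. Small heat shock proteins bind unfolding proteins, HSP90 and HSP70 refold or mature them, and HSP100 dissolves aggregates. The circadian clock of the leaf runs alongside. In Arabidopsis the MYB-related factors LHY and CCA1 peak at dawn and decline through the day, and evening factors such as LUX follow them.

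Each array reports 1 signal per probe set, a linear intensity scaled by the submitters to a common level. The mean of the signals without the top and bottom 2% was 500.04 or 500.05 on each of the 16 arrays. A background level was set for each array as the 95th percentile of probe sets with the ID prefixes PsAffx and HgAffx, read as not designed for soybean, and it was 74.5 to 91.2 at baseline and 76.3 to 100.4 at the optimum. The log2 background level was 6.35 ± 0.12 and 6.42 ± 0.20 (SD, n = 4), a difference below the spread between arrays (two-sided exact permutation p = 0.6). Control probe sets for GlutTrans had a larger 3′ minus 5′ log2 difference at the optimum, 0.80 ± 0.16 against 0.07 ± 0.25 (SD, n = 4). The exact permutation p was 0.0286, the smallest possible with 4 arrays in each group, and its Benjamini-Hochberg value over 11 array properties was 0.157. Of the other such controls, P450 moved by -0.38, GAPDH (3′ minus middle) by -0.01, and those of actin, ubiquitin and SucBP by 0.15 to 0.95. Their exact permutation p ran from 0.114 to 0.971. The part of the GlutTrans shift in the gene results was not tested. Of the leaf marker probe sets (CAB and Rubisco activase), 10 of 11 were above background on all 8 arrays, with summed signals of 229725 to 290999 at baseline and 225499 to 269595 at the optimum. Of 17 seed marker probe sets 12 were below background on all 8 arrays, and 3 probe sets of the Kunitz inhibitor genes KTI-2 and KTI-3 were above it on all 8. Each array holds the RNA of a whole piece of leaf, so fewer cells of a type and less RNA per cell cannot be told apart.

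Of 30517 probe sets tested, 3932 (12.9%) passed an adjusted p of 0.05 in limma, 2023 of them higher at the optimum (6.63%) and 1909 lower (6.26%). 645 of the rises and 593 of the falls were at least 2-fold, 103 and 72 at least 4-fold, and 25 and 14 at least 8-fold. The median size of the called changes was 0.77 on the log2 scale for rises, and the median of the called falls was -0.79. A fit of the 8 arrays alone called 1768 higher and 2089 lower. The median over all probe sets tested was -0.000285, on arrays the submitters had scaled to 1 trimmed mean, so neither this median nor the balance of rises and falls measures total transcript. The median standard error was 0.21. Signals of the 4 baseline and 4 optimum arrays did not overlap at 6005 probe sets (19.7%), and 3464 of these were also called. Below, a gene or probe set is said to rise, fall or change only where it was called.

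**Figure D1:**
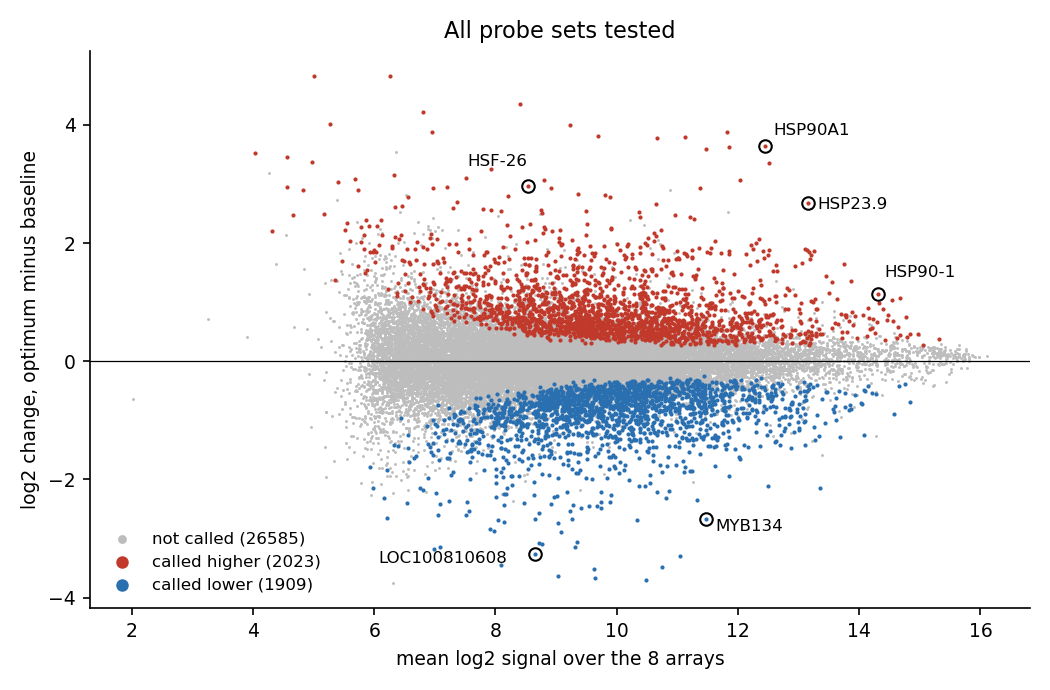
Each point is 1 of the 30517 probe sets tested, with the mean log2 signal over the 8 arrays on the x axis and the log2 change from baseline to optimum on the y axis. Red points were called higher (2023), blue points lower (1909) and grey points were not called; circles mark 6 genes described in the text, with HSP90A1 at 3.64 and LOC100810608 at -3.26.

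The share of calls rose with brightness. With the tested probe sets divided into 4 equal groups by mean signal, it was 3.92% in the dimmest group, 10.9% and 16.7% in the next and 20.1% in the brightest. The balance also moved with brightness, from 127 rises and 172 falls in the dimmest group to 937 rises and 596 falls in the brightest. That mean covers the optimum and the inhibited leaves, so a rise or fall itself moves a probe set towards brighter or dimmer groups. Probe sets of a gene with a symbol were called in 234 of 1343 cases (17.4%), those of a gene known by a locus number (LOC) in 908 of 6117 (14.8%) and those with no gene in the annotation in 2732 of 22716 (12%). The median signal of these classes was 858, 1017 and 459, so brightness moved with the class, and its part in these shares was not tested. Of probe sets with the soybean prefixes Gma and GmaAffx, 3921 of 29645 (13.2%) were called, and of those with the prefixes PsAffx and HgAffx 11 of 835 (1.32%).

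**Figure D2:**
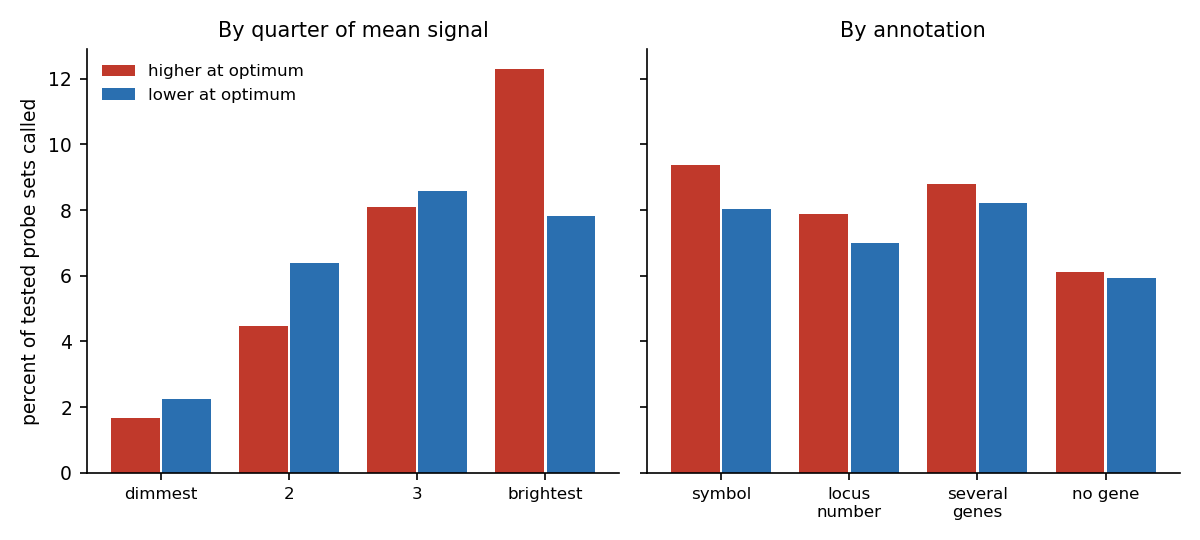
Bars give the percent of tested probe sets called higher (red) and lower (blue) at the optimum, on the left by mean signal in 4 equal groups and on the right by annotation. Rises and falls together run from 3.92% in the dimmest group to 20.1% in the brightest, where rises outnumber falls.

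Where a gene had a called probe set, the changes of its probe sets mostly had 1 sign, although in most such genes not all were called. Among 1490 genes with at least 2 probe sets tested, 345 had a called probe set, and in 306 of these all probe sets had changes of 1 sign. In 118 genes all probe sets were called, and 3 genes had probe sets called in opposite directions. Represented by its brightest probe set, each of 5371 genes gave 1 value, of which 462 rose and 402 fell.

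Chaperone genes rose at the optimum, where photosynthesis was at its highest. Of the small heat shock protein probe sets 7 of 8 rose (median log2 change 2.46), and of the HSP90 probe sets 9 of 10 (median 1.71), against 6.63% of all probe sets tested. HSP90A1, a cytosolic HSP90, had signals of 1388, 1183, 1086 and 3424 at baseline and 24203, 22767, 16021 and 16638 at the optimum. The groups lay far apart, yet baseline replicate 4 stood above the other baseline arrays. The log2 change was 3.64 ± 0.26 (limma adjusted p = 2.75e-07), and its other probe sets gave 3.63 and 3.88. Here and below, ± on a log2 change is the SE of the limma fit, which pools the spread of all 16 arrays. The SD of the HSP90A1 log2 signal was 0.76 at baseline and 0.31 at the optimum, against 0.08 at 20% and 0.18 at 30% inhibition.

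HSP90-1, the other HSP90 gene of the list, was already bright at the growth temperature. Its signals were 14129, 12110, 12437 and 16622 at baseline and 30571, 31303, 30346 and 28352 at the optimum. The optimum arrays lay close together above every baseline array, with a log2 change of 1.14 ± 0.14 (adjusted p = 5.34e-05). Its 5 other called probe sets rose by 1.35 to 1.95, and a dim one did not pass (log2 change -0.18 ± 0.68).

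Among the small heat shock proteins HSP23.9 was the brightest. It had signals of 3330, 2858, 3472 and 5100 at baseline and 26772, 26449, 18826 and 21530 at the optimum. Again baseline replicate 4 was the highest of its group, and optimum replicates 1 and 2 exceeded 3 and 4. The log2 change was 2.68 ± 0.16 (adjusted p = 5.84e-08), and its 3 other probe sets gave 2.95 to 3.35. HSP22.3 had signals of 221, 158, 175 and 306 at baseline and 1100, 930, 949 and 942 at the optimum, a log2 change of 2.23 ± 0.16 (adjusted p = 2.94e-07). The 2 probe sets of HSP17.5-E, a class I cytosolic small heat shock protein, rose by 1.82 ± 0.18 and 1.69 ± 0.22. The member that was not called, HSP22.5, was below background on all 8 arrays.

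The order of the arrays was shared across these chaperones. Over the 19 called probe sets of the small heat shock, HSP90, HSP70 and HSP100 lists, baseline replicate 4 was the highest baseline array at 18 and optimum replicate 1 the highest optimum array at 15. The mean log2 signal of the 19, relative to the baseline mean, was -0.10, -0.27, -0.23 and 0.60 on the baseline arrays and 2.50, 2.41, 2.02 and 2.09 on the optimum arrays. Baseline replicate 4 thus lay above its group but well below every optimum array. These probe sets were chosen by their change, so the gap between the groups is a description.

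Chaperones of other classes and of the secretory pathway also included rises. BIP4, the HSP70 of the endoplasmic reticulum (ER), had signals of 3897, 2949, 3275 and 5242 at baseline and 11472, 10779, 12402 and 9054 at the optimum. The log2 change was 1.53 ± 0.14 (adjusted p = 3.89e-06), and its other probe set gave 1.90 ± 0.17. Of the ER folding list as a whole, which shares BIP4 with the HSP70 list, 6 of 13 probe sets rose and none fell (median 0.79). That is 46.2% rising, against 6.63% of all probe sets. The others that rose were of the protein disulfide isomerase PDIM-1 and of LOC100170705, for which RefSeq gives the synonym PDIL-1. PDIM-1 had signals of 2412, 1519, 2068 and 2616 against 4091, 4699, 4189 and 3767, a log2 change of 0.98 ± 0.13 (adjusted p = 0.000119).

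SB100, an HSP100 of the ClpB type, rose by 1.14 ± 0.29 (adjusted p = 0.0147) from signals between 288 and 384 to signals between 468 and 869. Optimum replicate 3 was the lowest of its group, and still above every baseline array. Among chaperonins and cochaperones 2 of 17 probe sets rose (11.8%, against 6.63% of all probe sets). These were the cyclophilins CYP17, by 0.90 ± 0.13 (adjusted p = 0.000196), and CYP34, by 0.40 ± 0.11 (adjusted p = 0.0206). The count was 1 without baseline replicate 2, baseline replicate 3 or optimum replicate 2, and the call of CYP34 was also lost without optimum replicate 1. A fit of the 8 arrays alone lost the call of CYP34 as well.

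3 heat shock factor genes rose steeply while the rest of the family did not pass. HSF-26 had signals of 199, 141, 88.1 and 128 at baseline and 1070, 1178, 1006 and 919 at the optimum, a log2 change of 2.96 ± 0.27 (adjusted p = 3.34e-06). HSF-03 had signals of 248, 484, 259 and 408 and then 2339, 2797, 2065 and 2311, a change of 2.82 ± 0.25 (adjusted p = 1.84e-06). In both genes the optimum arrays lay close together and well above the baseline arrays. HSF-08 rose by 2.66 ± 0.33 (adjusted p = 5.81e-05) from 434, 1097, 445 and 770 to 4427, 4783, 3609 and 3450, and its other probe set by 2.52. In all, 4 of 14 HSF probe sets from 3 of 10 genes rose (28.6%, against 6.63% of all probe sets) and none fell, with a list median of 0.39. The brightest HSF probe set, of HSF-01, gave -0.16 ± 0.13 (adjusted p = 0.497), and the other probe set of that gene 0.90 ± 0.38 (adjusted p = 0.137).

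**Figure D3:**
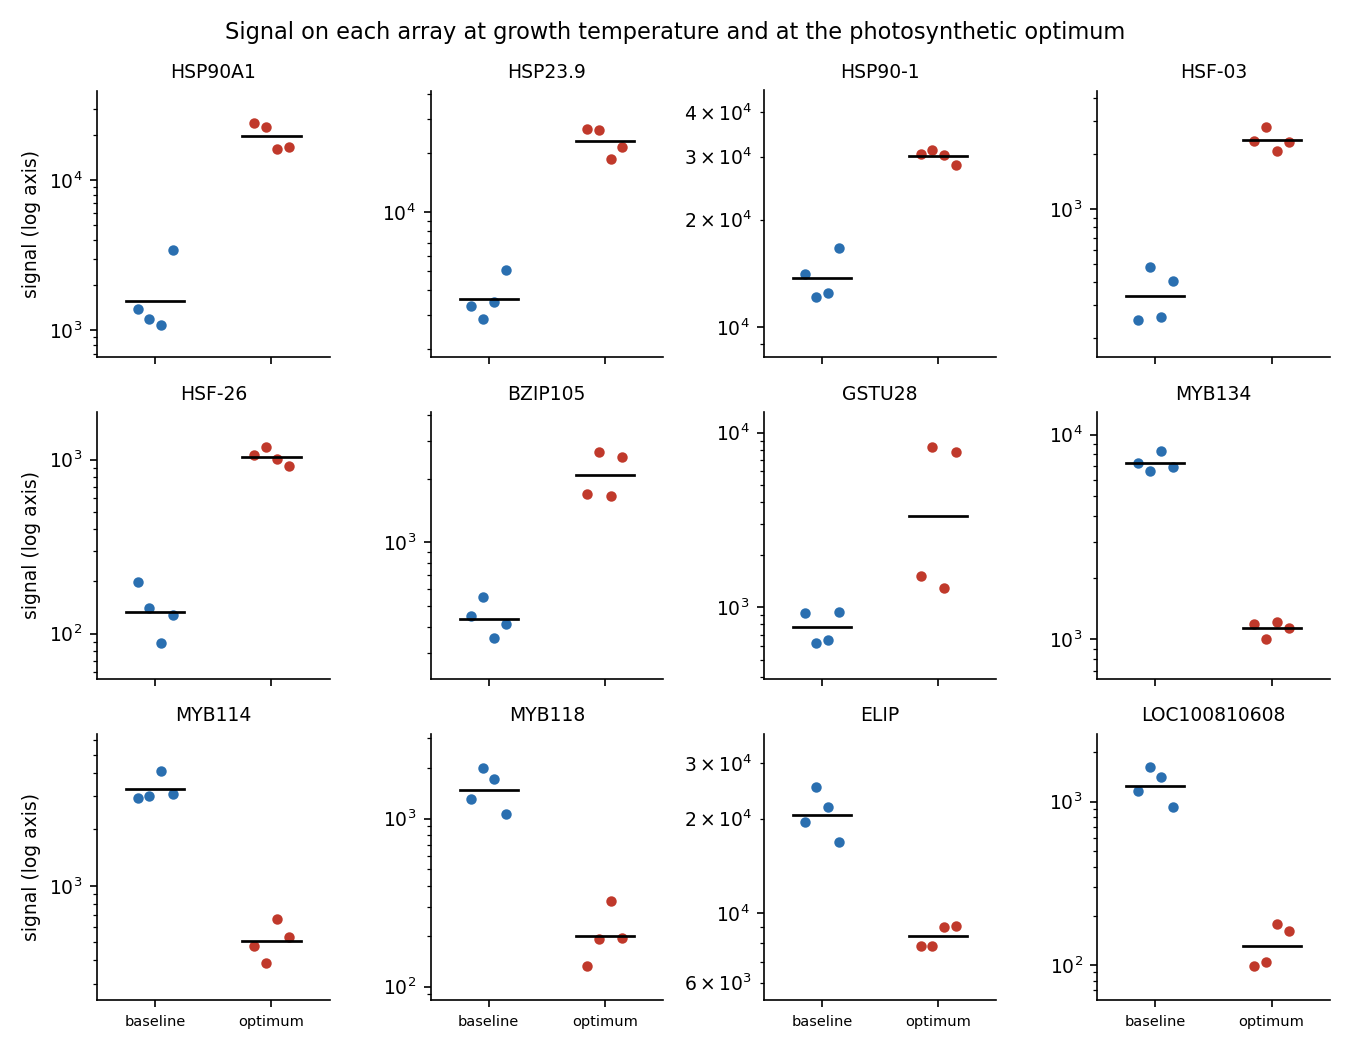
Points are the signals of single arrays (log axis) at baseline (blue) and at the optimum (red) for 12 genes, in the order of replicates 1 to 4, and lines are geometric means. HSP90A1, HSP23.9 and HSP90-1 show baseline replicate 4 highest in its group, and GSTU28 shows optimum replicates 2 and 4 apart from 1 and 3. In all 12 genes the 2 states do not overlap, as the rule for naming genes required.

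Factors of other families rose one by one. BZIP105, a bZIP transcription factor, had signals of 451, 556, 353 and 414 at baseline and 1688, 2663, 1662 and 2537 at the optimum. Its log2 change was 2.25 ± 0.19 (adjusted p = 1.27e-06), another probe set gave 2.09 ± 0.22, and a dim one did not pass (0.76 ± 0.35). Of 85 bZIP probe sets 10 rose (11.8%) and 4 fell (4.71%), against 6.63% and 6.26% of all probe sets, with a list median of 0.03. Apart from BZIP105 the rises were at most 0.81. The falls were BZIP36 (-1.27 ± 0.35), BZIP55 (-0.81 ± 0.22) and 2 smaller ones. Their count was 2 without baseline replicate 4, optimum replicate 1 or optimum replicate 3, 1 without baseline replicate 2 or 3, and 0 without optimum replicate 4. The call of BZIP55 was also lost without baseline replicate 1.

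WRKY and MYB factors are families of plant regulators tied to defence, metabolism and development. Of 89 WRKY probe sets 6 fell and 1 rose (median -0.18), a share of falls near that of all probe sets. Of 67 MYB probe sets outside the clock list (median -0.23), 11 fell (16.4%) and 6 rose (8.96%), against 6.26% and 6.63% of all probe sets. The WRKY falls were 10 in a fit of the 8 arrays alone, 2 without baseline replicate 2 and 3 without optimum replicate 3. The MYB falls were 7 without baseline replicate 2 and 6 without optimum replicate 4. WRKY6 rose by 1.55 ± 0.43 (adjusted p = 0.0247), a call lost without baseline replicate 2 or 3 or without optimum replicate 1, 2 or 4. WRKY28 fell by 0.93 ± 0.21 (adjusted p = 0.00694), from signals between 1098 and 1609 to signals between 648 and 723. WRKY8 (-1.36 ± 0.37) lost its call without baseline replicate 2, baseline replicate 3 or optimum replicate 2.

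MYB118 had the largest fall among genes with a symbol, from signals of 1306, 1999, 1723 and 1065 to 133, 192, 326 and 194. The log2 change was -2.88 ± 0.51 (adjusted p = 0.00139) and the groups stood well apart. MYB177 fell by 2.42 ± 0.60 (adjusted p = 0.013) from 339, 396, 267 and 268 to 83.6, 107, 12.4 and 107. The low value of optimum replicate 3 weighs on that size, and without it the change was -1.67. The other probe set of MYB177 was below background on all 4 optimum arrays, so its fall is a bound of at least 2.01-fold, and that call was lost without baseline replicate 1, 3 or 4 or optimum replicate 3 or 4. MYB73 fell by 1.62 ± 0.27 (adjusted p = 0.000743), with signals of 1303, 2695, 1811 and 1474 against 399, 723, 529 and 699. The rises in the family were led by MYB127, at 1.43 ± 0.19 (adjusted p = 0.000102) from between 264 and 346 to between 607 and 1033, and MYB48, at 0.89 ± 0.16 (adjusted p = 0.00184).

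Morning clock genes fell. Of 6 probe sets tested in the list of LHY, CCA1 and RVE relatives 5 fell (median -1.59), against 6.26% of all probe sets, and the groups did not overlap at any of the 6. MYB134 had signals of 7272, 6615, 8277 and 6919 at baseline and 1187, 1002, 1221 and 1131 at the optimum. Both groups were tight, and the log2 change was -2.68 ± 0.16 (adjusted p = 5.84e-08). MYB114, for which RefSeq lists an LHY name among the synonyms, fell by 2.69 ± 0.43 (adjusted p = 0.00051), from 2946, 3029, 4108 and 3085 to 480, 387, 666 and 533. RefSeq also gives MYB134 as a synonym of MYB114, so the 2 symbols may report related transcripts.

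The gene named LHY itself was bright and fell by less. Its signals were 11170, 9875, 10472 and 10084 at baseline and 4130, 4689, 4228 and 4457 at the optimum. The log2 change was -1.25 ± 0.16, its other probe set gave -1.18 ± 0.20, and MYB186 gave -1.28 ± 0.19. LCL3 lay lower on all 4 optimum arrays, 134 to 258 against 585 to 949, but did not pass (-1.91 ± 0.67, adjusted p = 0.0713). The single evening clock gene tested, LUXC, had a log2 change of 0.47 ± 0.18 that did not pass (adjusted p = 0.0935). For these genes warming and time of day cannot be told apart.

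Light perception and light harvesting showed few calls. Neither of 2 photoreceptor probe sets passed, PHYA (phytochrome A) at 0.01 ± 0.18 and CRY2B (a cryptochrome) at 0.07 ± 0.18, and none of 5 CONSTANS and flowering probe sets did. Of 11 light harvesting and photosystem probe sets, only the early light-induced protein gene ELIP fell. Its signals were 19488, 25135, 21742 and 16807 at baseline and 7851, 7834, 9017 and 9120 at the optimum, a log2 change of -1.29 ± 0.21 (adjusted p = 0.000641). CAB3, a chlorophyll a/b binding protein and among the brightest transcripts of the leaf, was at 56604 to 71095 and 60445 to 70445 (0.06 ± 0.12, adjusted p = 0.802).

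The Calvin cycle list, which here is mostly Rubisco activase, had 1 fall among 7 probe sets (median -0.31). RCA14, a Rubisco activase, gave -0.31 ± 0.12 at its brightest probe set (adjusted p = 0.0958), with 28874 to 39335 at baseline and 24409 to 30092 at the optimum. The fall in the list was at a dimmer probe set of the same gene, RCA14. The photorespiratory enzyme gene SHMT (serine hydroxymethyltransferase) fell by 0.72 ± 0.20 (adjusted p = 0.023). That call was lost without baseline replicate 1, 3 or 4 or optimum replicate 2 or 4.

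Of 17 sugar and starch probe sets 8 fell, 8 were not called and 1 rose (median -0.63), against 6.26% of all probe sets called lower and 6.63% called higher. SWEET34, of the SWEET sugar transporters, had signals of 1416, 1677, 1749 and 1119 at baseline and 602, 685, 614 and 580 at the optimum, a log2 change of -1.25 ± 0.16 (adjusted p = 9.78e-05). SWEET28 fell by 1.34 ± 0.24 (adjusted p = 0.00163), from between 489 and 852 to between 157 and 346. The sucrose transporter gene SUT1 fell at all 3 of its probe sets, by 0.77 to 0.84, and the beta-amylase gene BMY2 at all 3 of its own, by 0.63 to 1.04. The smallest BMY2 call was lost without baseline replicate 2 or 3 or optimum replicate 1, 3 or 4. SWEET31 was the member that rose, from between 5.90 and 52.7 to between 69.6 and 205, with all baseline signals and 1 of the 4 optimum signals below background, so its rise is a bound of at least 1.64-fold (adjusted p = 0.0425). That call was lost without baseline replicate 3 or 4 or optimum replicate 1, 2 or 4, and in a fit of the 8 arrays alone. The other probe set of SWEET31 did not pass (1.60 ± 1.04, adjusted p = 0.368).

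Of 26 nitrogen assimilation probe sets 4 fell (15.4%, against 6.26% of all probe sets), none rose and 22 were not called (median -0.18). The asparagine synthetase gene AS2 fell by 1.46 ± 0.29 (adjusted p = 0.00318), with signals of 2504, 2939, 2276 and 2212 against 929, 1614, 524 and 819. The nitrate transporter gene NRT1-3 fell by 1.46 ± 0.30 (adjusted p = 0.00394), from between 3112 and 9546 to between 1240 and 2674. The ammonium transporter gene AMT1.3 had a change of -1.65 ± 0.51 with overlapping groups. That call was lost without baseline replicate 1, 2 or 3 or optimum replicate 1, 2 or 4. It was also lost in a fit of the 8 arrays alone. OAS-TL6, an O-acetylserine (thiol) lyase of cysteine synthesis, fell by 1.54 ± 0.21 (adjusted p = 0.000123), from 3244, 5185, 4648 and 3302 to 1070, 1416, 1421 and 1658, and by 1.35 ± 0.20 at its other probe set.

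Single members of other families fell as well. WNK13, of the WNK protein kinases, had signals of 1001, 1628, 955 and 781 at baseline and 339, 397, 286 and 301 at the optimum, a log2 change of -1.68 ± 0.26 (adjusted p = 0.000362). The other WNK kinases moved less, WNK8 by -0.59 ± 0.19 and WNK1 by -0.46, so that 3 of 5 fell. That count was 1 without baseline replicate 1 or 2 or optimum replicate 2 or 4, and the call of WNK8 was also lost without baseline replicate 4 or optimum replicate 3, and that of WNK1 without baseline replicate 3. FAD6.1, a fatty acid desaturase, fell by 1.51 ± 0.23 (adjusted p = 0.000343), from between 1813 and 2827 to between 571 and 1124, the only call among 10 probe sets of that list. PHR fell by 1.55 ± 0.35 (adjusted p = 0.00826), from 218, 334, 257 and 247 to 75.2, 116, 54.2 and 135. Its other probe set was below background on all 4 optimum arrays, a fall of at least 1.84-fold.

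Of 57 phenylpropanoid and flavonoid probe sets 46 were not called, 10 fell (6.26% of all probe sets did) and 1 rose (median -0.34), and in a fit of the 8 arrays alone 17 fell. IFS1 (isoflavone synthase) had signals of 1819, 1781, 1786 and 1588 at baseline and 825, 698, 573 and 499 at the optimum, a log2 change of -1.45 ± 0.23 (adjusted p = 0.000435). HIDH, the dehydratase that follows it in isoflavone synthesis, had a change of -1.04 ± 0.33 (adjusted p = 0.0474), a call lost without any 1 of 7 arrays and kept without optimum replicate 1. CHR4 (chalcone reductase) was the member that rose, by 0.91 ± 0.19 (adjusted p = 0.0038), from between 295 and 491 to between 554 and 905.

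Jasmonate genes had calls at about the share of all probe sets or below it. Of 47 probe sets 3 rose and 2 fell (median 0.02). The 3 rises were all of COI1, the jasmonate receptor F-box gene, by 0.60 to 0.75, and its 2 other probe sets did not pass (0.83 ± 0.50 and 0.27 ± 0.16). The rises in the list were 5 without baseline replicate 3. The falls were AOC4 (allene oxide cyclase) by 1.26 ± 0.28 (adjusted p = 0.00723) and AOS2 (allene oxide synthase) by 0.63 ± 0.18 (adjusted p = 0.029). The call of AOS2 was lost without baseline replicate 2 or 3 or optimum replicate 2, 3 or 4, and the falls were 5 in a fit of the 8 arrays alone.

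Glutathione S-transferases, which join glutathione to reactive compounds, split between rises and falls. Of 45 probe sets 6 rose (13.3%) and 5 fell (11.1%), against 6.63% and 6.26% of all probe sets (list median 0.19). The rises were 2 without baseline replicate 1 or 3 and 3 without optimum replicate 1. GSTU28 had signals of 936, 624, 649 and 939 at baseline and 1517, 8237, 1299 and 7714 at the optimum. Optimum replicates 2 and 4 stood far above 1 and 3, which lay nearer to the baseline arrays, and the log2 change of 2.11 ± 0.65 (adjusted p = 0.0415) lost its call without any 1 baseline array and without optimum replicate 2 or 4. GSTIR rose by 1.06 ± 0.26 (adjusted p = 0.0132), from between 381 and 663 to between 905 and 1199. LOC547576 fell by 0.86 ± 0.20 (adjusted p = 0.00843), and LOC548030 by 0.84 ± 0.15 (adjusted p = 0.00132).

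Aquaporins are membrane channels for water. Of 34 aquaporin probe sets 8 rose (23.5%, against 6.63% of all probe sets) and 1 fell (median 0.22), with 3 rises without baseline replicate 2, baseline replicate 4 or optimum replicate 4 and 5 without baseline replicate 3 or optimum replicate 2 or 3. A count of 3 is close to the share of all probe sets. The plasma membrane aquaporin PIP1-4 rose by 1.12 ± 0.22 (adjusted p = 0.00317), with signals of 426, 205, 264 and 344 against 571, 572, 823 and 668. LOC100306092, for which RefSeq gives a TIP name (a vacuolar membrane aquaporin), had a change of 1.76 ± 0.54 (adjusted p = 0.0409). Its baseline arrays ranged from 311 to 1291, and the call was lost without baseline replicate 2, 3 or 4 or any 1 optimum array. PIP1-8 was the member that fell, by 0.87 ± 0.18 (adjusted p = 0.00352).

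In the dehydration and abscisic acid list (median 0.56) 4 of 16 probe sets rose (25%) and 2 fell (12.5%), against 6.63% and 6.26% of all probe sets. ERD15, a small protein of early dehydration, had signals of 1151, 2111, 1390 and 1520 at baseline and 3500, 4933, 4232 and 5464 at the optimum, a log2 change of 1.57 ± 0.16 (adjusted p = 1.09e-05). PM37, named for a seed maturation protein, rose by 0.91 ± 0.11 (adjusted p = 3.78e-05), from between 11721 and 14606 to between 22183 and 26992. PM23 fell by 0.72 ± 0.10 (adjusted p = 0.000249), from between 9464 and 11558 to between 5546 and 7084. Of 6 DREB probe sets, for factors of drought and cold responses, DREB alone rose, by 0.58 ± 0.18 (adjusted p = 0.0394), a call lost without any 1 array other than baseline replicate 2 and optimum replicate 1.

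Growth-related lists had a few rises, at about the share of all probe sets, and no falls. GASA22, of the gibberellin-regulated small peptides, rose by 1.90 ± 0.34 (adjusted p = 0.00134), with widely spread signals of 3462, 2023, 6492 and 9448 at baseline and 23473, 17335, 11835 and 17199 at the optimum. GASA9 rose by 0.68 ± 0.18 (adjusted p = 0.0196), a call lost without baseline replicate 2 or optimum replicate 1. They were the 2 rises among 23 gibberellin and brassinosteroid probe sets (8.7%, against 6.63% of all probe sets, list median 0.52). XET1, a xyloglucan endotransglycosylase that loosens cell walls, rose by 1.11 ± 0.20 (adjusted p = 0.00155), from between 3706 and 5114 to between 6780 and 11236. It was the only call among 11 cell wall probe sets (9.09%).

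Several groups had no call at all, among them 12 ethylene, 16 calmodulin and calcium, 10 cytosolic ribosomal protein and 8 ubiquitin and proteasome probe sets. With 12.9% of all probe sets called, few calls would fall in lists of that size. Of 33 NAC probe sets 3 rose and 3 fell (9.09% each, against 6.63% and 6.26% of all probe sets), and of 18 antioxidant enzyme probe sets 1 rose (5.56%). Over all lists, 78 of 744 probe sets rose and 68 fell. The only call among 5 tested nodule and root marker probe sets was NOD33, named as a nodulin, which rose by 1.14 ± 0.22 (adjusted p = 0.00242). The summed signal of all 17 nodule and root marker probe sets was 5382 to 6291 at baseline and 6713 to 9415 at the optimum (exact permutation p = 0.0286, adjusted 0.157 over the array properties), and 6 of the 17 were below background on all 8 arrays. NOD33 went from a mean signal of 1589 to 3522, and the sum of the 16 other probe sets was 4045 to 4577 at baseline and 3973 to 5316 at the optimum.

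**Figure D4:**
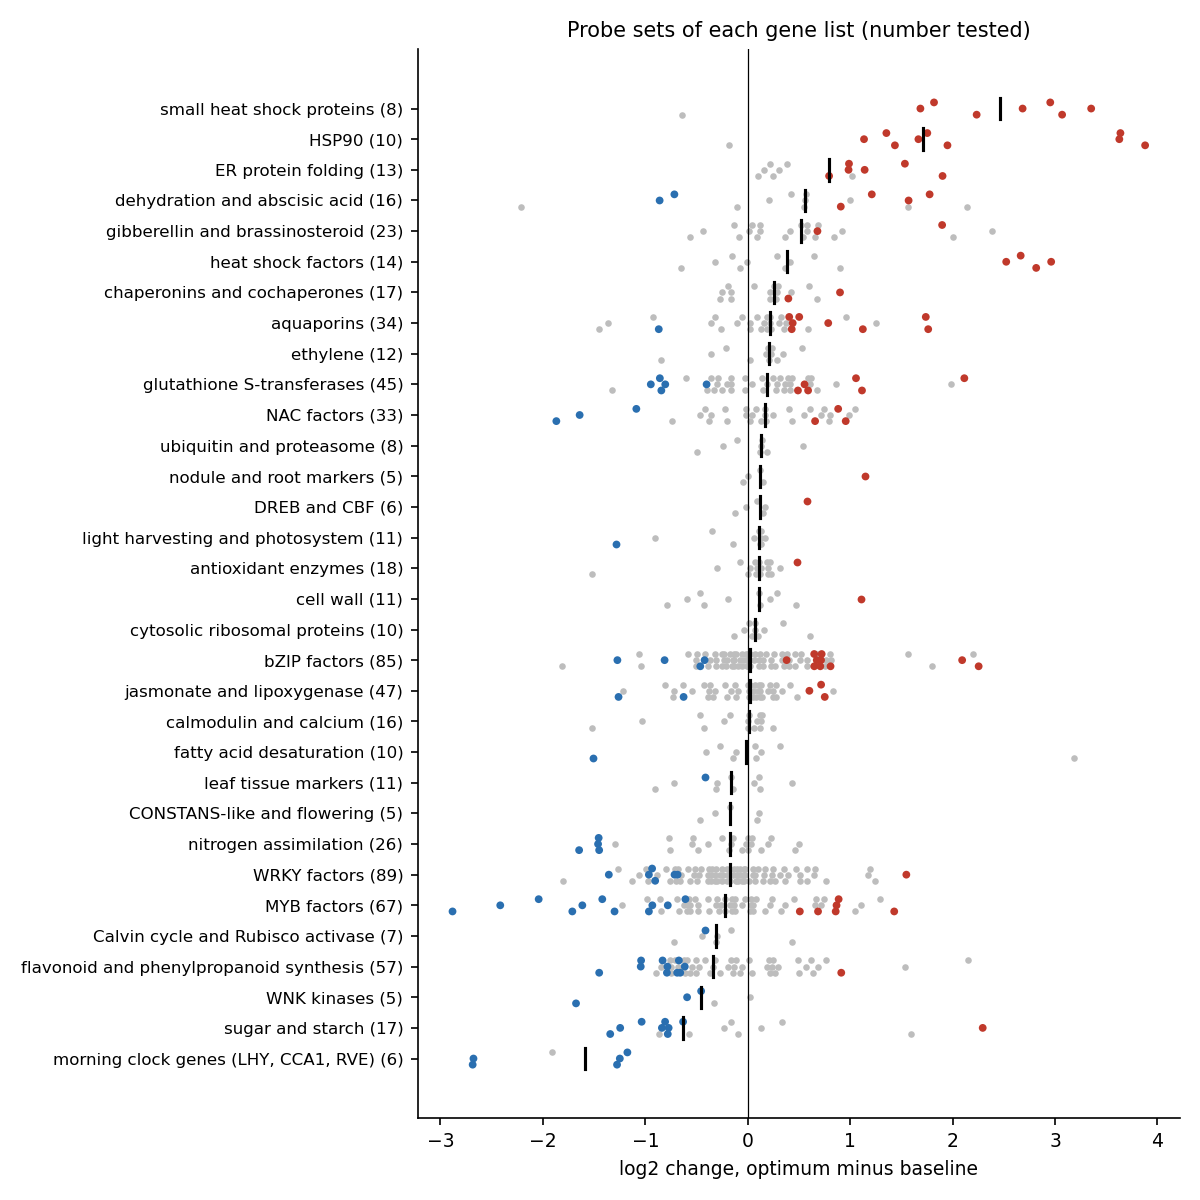
Each row is a gene list with at least 5 probe sets tested, each point the log2 change of a probe set from baseline to optimum (red called higher, blue called lower, grey not called), and the black bar the list's median. Small heat shock proteins (2.46) and HSP90 (1.71) lie farthest to the right and morning clock genes (-1.59) farthest to the left, and most other lists centre near 0.

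Genes known only by a locus number were 84.5% of the 5371 genes tested. Of the genes that were called, did not overlap between the states and were above background on all 4 arrays of the brighter state, 82.1% of those that rose and 82.1% of those that fell had a locus number only, as did 7 of the 12 largest rises and 8 of the 12 largest falls among them. LOC100791734 had signals of 160, 213, 237 and 116 at baseline and 1087, 2117, 908 and 1526 at the optimum, a log2 change of 2.93 ± 0.24 (adjusted p = 8.17e-07). LOC100500220 had 159, 202, 143 and 215 and then 1200, 1255, 719 and 1105, a change of 2.56 ± 0.20 (adjusted p = 4.26e-07). The states do not overlap in either gene, as the rule for naming genes required. LOC100306232 rose by 2.41 ± 0.21 (adjusted p = 1.43e-06), from 1024, 1435, 794 and 1152 to 4221, 7384, 5398 and 6429.

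LOC547661 showed how probe sets of a gene can disagree. 2 of its probe sets rose, by 2.44 ± 0.21 and 2.79 ± 0.25, and another, at 1696 to 2397 and 1725 to 2043, gave -0.13 ± 0.12 (adjusted p = 0.565). LOC100808512 rose by 2.51 ± 0.27 (adjusted p = 1.58e-05), from 116, 259, 210 and 181 to 902, 1268, 823 and 1266. LOC100527212 rose by 2.94 ± 0.42 (adjusted p = 0.000218), with 1 of 4 baseline arrays above background at 13.8 to 82.8 and the optimum arrays at 238 to 487. LOC100795212 had 1 probe set at 31.1 to 102 and then 290 to 605 (2.70 ± 0.47), and another below background on all baseline arrays, a rise of at least 5.84-fold.

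LOC100810608 had the largest fall among those 12 genes, with signals of 1157, 1619, 1414 and 928 at baseline and 97.8, 104, 179 and 160 at the optimum. The log2 change was -3.26 ± 0.32 (adjusted p = 5.71e-06), and its dimmer probe set gave -2.73 ± 0.79, a call lost without baseline replicate 1, 2 or 3 or optimum replicate 1, 2 or 4. LOC100779440 was the brightest of the 12 genes with the largest falls, from 20902, 16893, 25448 and 26006 to 5413, 4181, 5792 and 4746 (-2.14 ± 0.20, adjusted p = 3.34e-06). Its other, dim probe set did not pass (-0.54 ± 0.20). LOC100802936 fell by 2.48 ± 0.21 (adjusted p = 1.37e-06) and LOC100779717 fell by 2.45 ± 0.27 (adjusted p = 1.75e-05).

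In 4 other genes that fell, 1 or 2 arrays stood apart from the rest of their group. LOC100820538 had 1215, 1504, 1082 and 1116 at baseline and 728, 566, 41.4 and 25.4 at the optimum, so optimum replicates 1 and 2 lay nearer to the baseline arrays than to replicates 3 and 4. Its change of -3.08 ± 0.90 (adjusted p = 0.0333) lost its call without any 1 baseline array and without optimum replicate 3 or 4. A fit of the 8 arrays alone lost that call too. The change was -3.86 and -3.74 without optimum replicates 1 and 2 and -2.48 and -2.24 without optimum replicates 3 and 4. LOC548026 had 883, 262, 293 and 287 at the optimum, with replicate 1 high, against 1384 to 3368 at baseline (-2.38 ± 0.39, adjusted p = 0.000741). Its other probe set did not pass, although its groups did not overlap (-2.24 ± 0.91). LOC100792170 had 370, 2306, 257 and 646 at baseline, and its change of -2.24 ± 0.57 was -1.60 without baseline replicate 2 and lost its call without optimum replicate 4. LOC100305571 had 399 on optimum replicate 1 and 96.2 to 159 on the others, against 921 to 1156 at baseline (-2.66 ± 0.66, adjusted p = 0.0134).

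Probe sets with no gene in the annotation were 74.4% of those tested. They made up 67.3% of the rises and 71.7% of the falls of at least 2-fold, shares slightly below that, and 19 of 25 rises of at least 8-fold. The probe set GmaAffx.76913.1.S1_at rose from 82.8, 27.8, 143 and 97.1 to 791, 1891, 1582 and 2356 (4.35 ± 0.56, adjusted p = 7.75e-05). GmaAffx.69544.1.S1_s_at was below background on all baseline arrays and at 578, 557, 284 and 306 at the optimum, a rise of at least 5.01-fold (adjusted p = 0.000117). Its fitted log2 change of 4.82 was 5.63 without baseline replicate 1 and 4.21 without baseline replicate 2. Gma.10789.1.A1_at fell from 5146, 5039, 6481 and 4278 to 764, 285, 382 and 302 (-3.70 ± 0.41, adjusted p = 2.1e-05). Gma.8708.1.S1_at fell from 2383, 4410, 3293 and 1873 to 194, 196, 263 and 253 (-3.66 ± 0.26, adjusted p = 2.04e-07).

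Beside the levels in the inhibited leaf, the early changes took several shapes. The comparisons share arrays, so only levels are given. LOC100791734, with a mean of 1410 at the optimum, was at 39211 at 20% inhibition, and HSP22.3 went from a mean of 980 to 32279. In these genes the step from baseline to the optimum was smaller than the step from there to 20% inhibition. HSP90A1 stood at 19907 at the optimum and 63445 at 20% inhibition. HSF-03 was at a mean of 2378 at the optimum, 2082 at 20% and 2200 at 30% inhibition, and HSF-26 at 1043, 1022 and 1192, levels within the spread of the arrays. HSF-08 was instead higher in the inhibited leaf, at a mean of 4067 at the optimum, 6740 at 20% and 8954 at 30% inhibition. At its brightest probe set HSP90-1 had its highest mean at the optimum, 30143 against 22947 and 25367 in the inhibited leaf. Some arrays at 30% inhibition reached the optimum's level there. The dimmest of its called probe sets was instead highest at 30% inhibition, with means of 3419 at the optimum, 3268 at 20% and 4486 at 30% inhibition. Its remaining called probe sets were highest at the optimum.

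Falling genes varied in the same way. MYB134, at a mean of 1135 at the optimum, was at 160 at 20% and 111 at 30% inhibition. MYB118 was at 211, 129 and 203, and LOC100779440 at 5033, 4802 and 4168, so most of their fall was present at the optimum. Gma.8708.1.S1_at was lowest at the optimum, at a mean of 226 against 778 and 473 in the inhibited states.

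**Figure D5:**
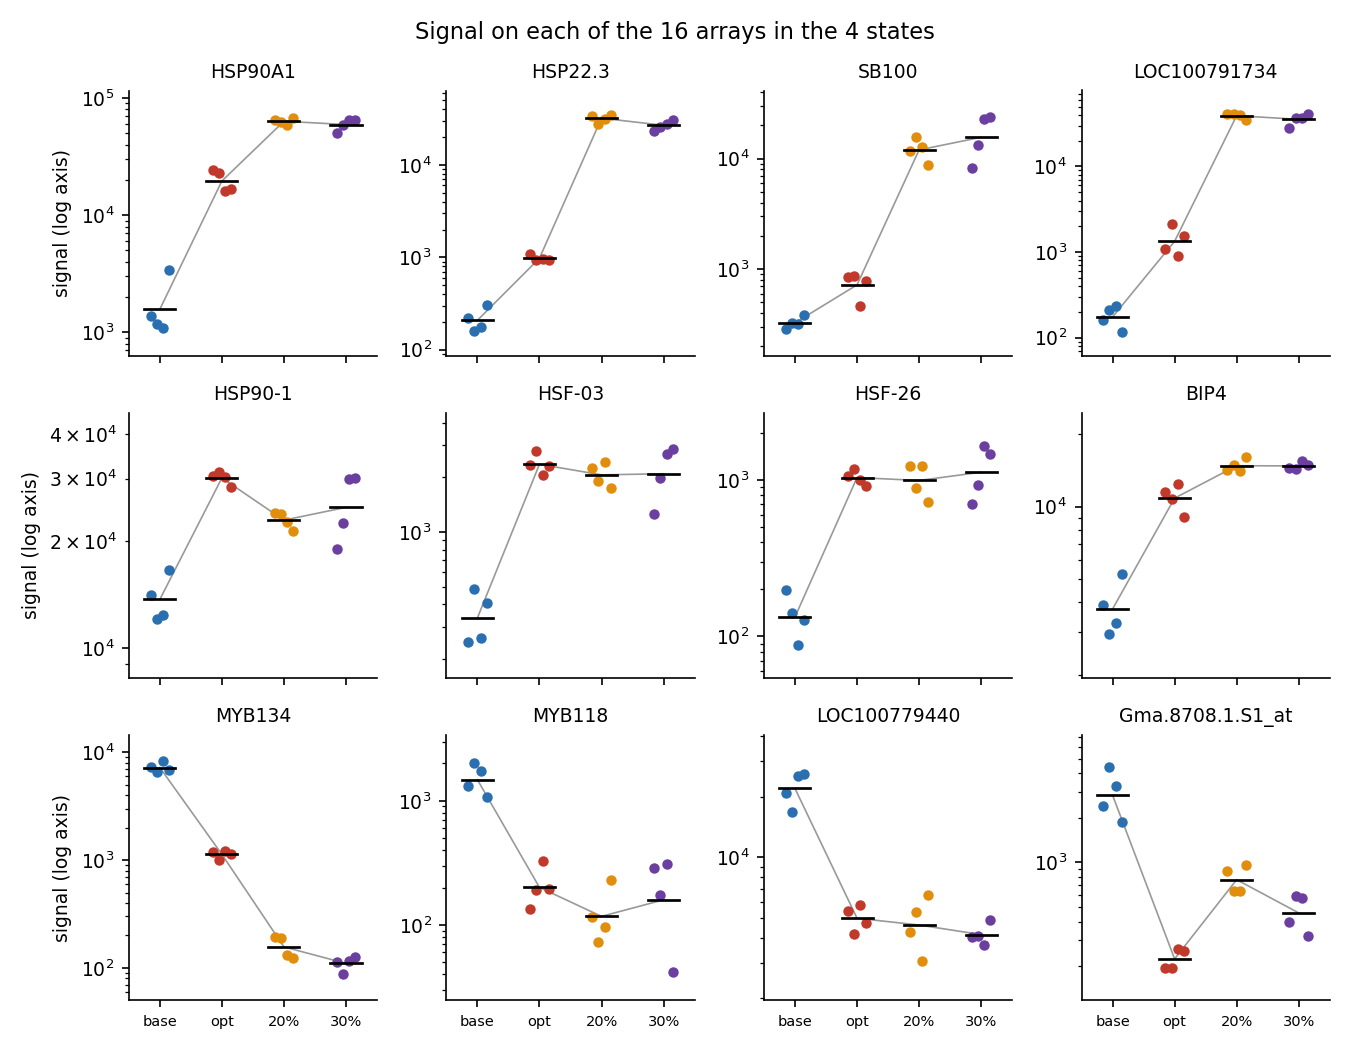
Points are the signals of single arrays (log axis) in the 4 states, with baseline (blue), optimum (red), 20% inhibition (orange) and 30% inhibition (purple), black lines are geometric means and grey lines join them. HSP22.3, SB100 and LOC100791734 take a step at the optimum and a larger one at 20% inhibition. HSF-03 and HSF-26 stand near their later level already at the optimum, and HSP90-1 has its highest mean there at the probe set shown.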

How the data were processed

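Per the submitters' processing notes, the deposited values are MAS5 signals, and each is a linear intensity of a probe set on an array. The version of MAS5 is not given in the sources used here. No detection p-values were used, and 4 arrays per state limit the precision. Whether a plant was sampled in several states is not stated, so p-values measure only the spread between these samples.

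Here log2 of the deposited intensities was used as it stood. Without 135 control probe sets 61035 remained, and those with a mean log2 signal over the 16 arrays above the median of 6.08 (a signal of 67.6) were tested. limma 3.58.1 under R 4.3.3 fitted a mean per state over all 16 arrays with a variance trend, a two-sided moderated test of optimum minus baseline and Benjamini-Hochberg adjustment (threshold 0.05). The procedure was tested on simulated data. Alternatives changed the filter, scale, normalization, weights, arrays and a replicate block. A fold against a state below background on all 4 arrays is a bound, with each dim value raised to its array's background level.

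Names came from the platform annotation (8677 probe sets with 1 gene, 370 with several, 51988 with none), and 8652 were found in a RefSeq table of Glycine_max_v4.0. Gene lists match symbols or synonyms, and accidental matches were removed by name alone. Probes can also bind transcripts of related soybean genes. The comparison, lists and tests were chosen with earlier results of these data known.

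Genes are named by a rule. Eligible genes passed the threshold, had no overlap between the states and had all 4 arrays of the brighter state above background, with the brightest probe set standing for the gene. Taken were the 12 largest rises and falls, the 8 largest of each among genes with a symbol, the 2 largest of each per list (or its 2 brightest members), and 2 unannotated rises and falls. LHY, MYB186, LCL3, HSP17.5-E, HSP22.5, HSF-01, SUT1, BMY2, SWEET31, AMT1.3, WNK1, LOC100170705 and further probe sets of HSP90-1, BIP4 and COI1 were named after their values were seen.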

Additional observations from a re-analysis of the deposited data

Results flagged for a closer look

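12 of 346 groups of 4 arrays, over the named probe sets and the array properties, had 1 array far from the other 3 by Dixon's test. Chance flags about 1 in 20 groups, which is more than were found, so single flags carry little weight.

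In genes that rose, SWEET31 was low on baseline replicate 4, at 5.90 against 38.3 to 52.7, all below background. HSP22.3 was high on optimum replicate 1, at 1100 against 930 to 949 on the others, and GASA9 on the same array, at 25869 against 15744 to 17053. SB100 was low on optimum replicate 3, at 468 against 784 to 869. In genes that fell, LOC548026 was high on optimum replicate 1, at 883 against 262 to 293, MYB177 was low on optimum replicate 3, at 12.4 against 83.6 to 107, and MYB114 was high on baseline replicate 3, at 4108 against 2946 to 3085. WRKY8 was low on optimum replicate 2, at 77.5 against 113 to 119, AOS2 on optimum replicate 4, at 619 against 699 to 713, and IFS1 on baseline replicate 4, at 1588 against 1781 to 1819. Among genes not called, the superoxide dismutase gene SODB2 was high on baseline replicate 3, at 44618 against 37093 to 37996, and the auxin-responsive gene AUX22 low on optimum replicate 2, at 132 against 347 to 371.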

How the results depend on the processing

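The number of probe sets called, 3932 in the main setting, ranged from 2983 with no filter on dim probe sets to 5590 with array weights over the settings that kept all 8 arrays, with 2929 and 3920 of the calls shared with the main setting. A fit of the 8 arrays alone called 3857 (1768 higher and 2089 lower), quantile normalization 3778 and log2(signal + 16) 4008. Leaving out 1 of the 8 arrays gave 2735 to 3637 calls, 1412 to 1932 higher and 1276 to 1747 lower, and 117 to 141 calls among gene list members, of which the main setting called 146. Whether the replicate numbers pair the samples is not stated. Same-numbered baseline and optimum arrays deviated from their group means with correlations of -0.01, 0.07, 0.22 and -0.15. Differently numbered arrays gave -0.28 to 0.29. Such correlations cannot settle the pairing, because the spread between arrays can hide a shared plant. With the replicate number as a block 3558 were called, 1830 higher and 1728 lower. Of 92 probe sets named by the rule and called, 74 kept call and direction under every alternative that tested them (all 19 for 54 of them and at least 17 for the other 20), 18 lost the call under at least 1, and none reversed. The direction of the background level difference was the same with the median in its place (0.14 against 0.07 log2). Shared binding of related genes and dim signals limit what the arrays resolve: 3.92% were called in the dimmest of 4 groups by signal.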

Other observations

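Some genes chosen after their values were seen, all outside the lists except NAC3, give further named changes. SDP1-3, of the triacylglycerol lipases that break down stored oil, had signals of 299, 380, 209 and 376 at baseline and 696, 869, 654 and 883 at the optimum, a limma log2 change of 1.32 ± 0.19. PPCK2, a kinase of phosphoenolpyruvate carboxylase, rose by 1.05 ± 0.24, from between 419 and 931 to between 1145 and 1370. NF-YA05, a subunit of the CCAAT-binding factor NF-Y, fell by 1.32 ± 0.20, from between 1468 and 2618 to between 535 and 1022. SGR1, a stay-green gene of chlorophyll breakdown, had 1346, 1790, 1394 and 1468 at baseline and 1273, 1051, 310 and 589 at the optimum. Its change of -1.08 ± 0.31 lost its call without baseline replicate 2, 3 or 4 or optimum replicate 3 or 4. The call was also lost in a fit of the 8 arrays alone. NAC3, a transcription factor of the NAC list, fell at 3 probe sets, by 1.09 to 1.87, and its other probe set gave -0.02 ± 0.41. These are the 3 falls already counted in that list.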
